A study of Mus musculus with 6 samples.

Results

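Organic ion transporters of the Slc22, Slco and Slc47 families were measured in whole liver of mice with an inducible endothelial deletion of the kinase TAK1 (gene Map3k7). The members were all rows of the deposited expression table whose names begin with Slc22a, Slco or Slc47a and a number, without Slco1b2 and Slco1a4. They numbered 41 of 24318 rows, with 26 Slc22, 13 Slco and 2 Slc47 genes. Among them, Slc22a13b-ps is a transcribed pseudogene and Slco6b1 a noncoding gene in the RefSeq annotation. The study compared knockout livers, from VEcadCreERT2/TAK1flox/flox mice treated with tamoxifen, with control livers from mice that received no treatment and had the same VEcadCreERT2/TAK1flox/flox genotype, all on a C57BL/6 background. The loxP-flanked Map3k7 alleles and the Cre recombinase, which is driven by the VE-cadherin promoter and needs tamoxifen to act, were thus present in both groups, and deletion of TAK1 and tamoxifen itself cannot be told apart. Each group had 3 libraries, and age and sex are not given in the labels. Because the labels call the libraries triplicates and name no animals, p-values cover only the variation among these samples, which may be technical.

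Slc22 proteins carry organic cations, organic anions and zwitterions such as carnitine across the plasma membrane, and in liver several of them load drugs and metabolites from sinusoidal blood into hepatocytes. Slco genes encode the organic anion transporting polypeptides, which take up bile salts, conjugated steroids, thyroid hormones and prostaglandins. Slc47 genes encode the proton-coupled exporters that release organic cations into bile and urine.

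Levels are in FPKM (fragments scaled to transcript length and to library size), as mean ± SD over 3 libraries. Changes are log2 ratios of FPKM + 0.5, knockout over control, with their standard error, and the added 0.5 makes changes of low genes look smaller. The 11842 genes that averaged 0.5 FPKM or more over the 6 libraries were tested with limma, and the threshold for a call was an adjusted p of 0.05 (Benjamini-Hochberg). Total read numbers are unknown. The spacing of low values gave relative depths of 0.921 to 1.04 for knockout libraries and 0.964 to 1.08 for control libraries, with control 1 as the unit. Map3k7 measured 7.35 to 9.31 FPKM in knockout and 8.498 to 9.14 FPKM in control livers, which does not check the labels, since other cells also express it. Xist was above 0 in every library, and 4 genes of the Y chromosome (Ddx3y, Uty, Kdm5d and Eif2s3y) were listed at 0 in all 6 libraries.

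Most of the transporters that liver expresses were lower in knockout livers. Of the 41 members, 17 were listed at 0 in all 6 libraries, 9 were above 0 somewhere but under the filter, and 15 were tested. Of these 15, 9 fell, 0 rose and 6 did not pass the test, with a median log2 fold change of -0.95. Among the 9, Slc22a3 passed the filter on low values only through its control libraries. Among all genes tested, 13% were called lower and 14.1% higher (27% in either direction), with a median log2 fold change of -0.0007. The all-gene count of 1534 lower genes was 996 without control 1 and 943 without control 2. At an unadjusted p under 0.05, 11 members were lower and 0 higher in limma, the only tool used. Among 202 other tested genes named Slc, 20.3% were called lower and 15.8% higher, with a median of -0.07. No knockout library overlapped a control library for 11 of the 15, all with knockout below control, against 21.1% of all tested genes with knockout below control and 22.4% with knockout above.

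**Figure D1:**
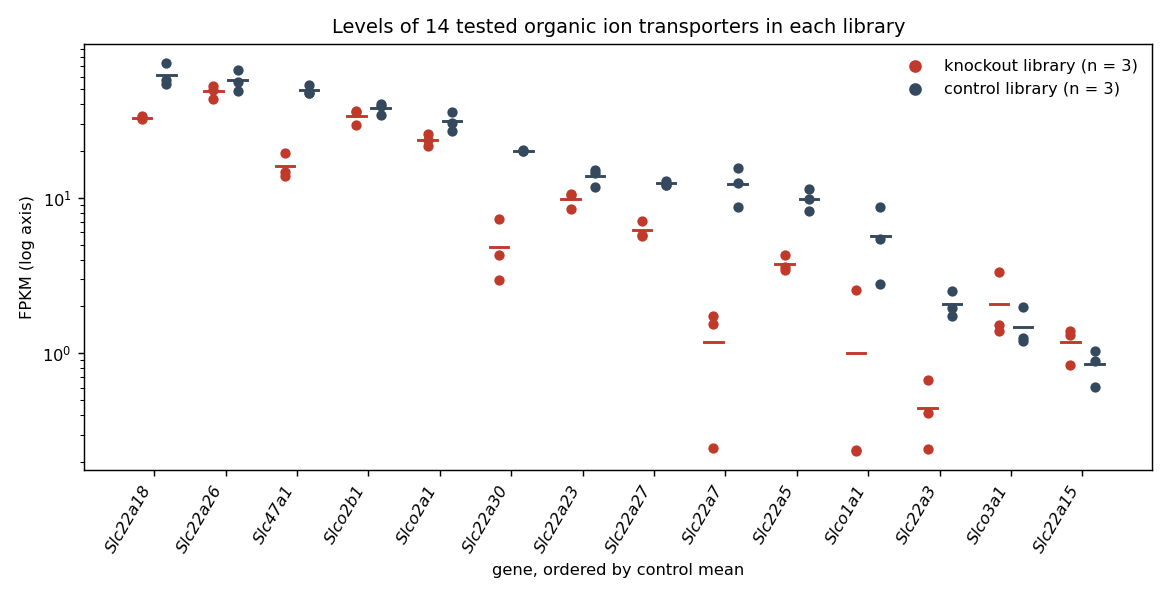
FPKM of 14 of the 15 tested transporters (log axis) in each of 3 knockout and 3 control libraries, with bars at the group means, ordered by the control mean. For 10 of these 14 genes every knockout library lies below every control library.

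**Figure D2:**
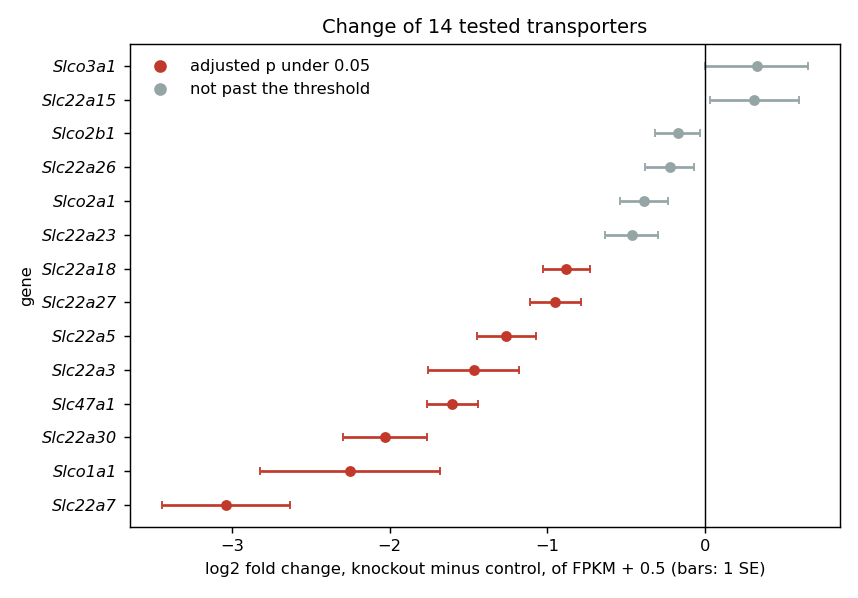
Log2 fold change of knockout against control for the same 14 transporters, with bars of 1 standard error. The 8 genes past the threshold lie between -3.04 (Slc22a7) and -0.88 (Slc22a18), and the remaining 6 between -0.46 and 0.33.

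Hepatocytes are the main site of several of these genes, and markers of hepatocytes moved the same way. Of 8 hepatocyte markers 4 fell and 0 rose (median log2 fold change -0.42). Their summed level was 9761 to 11910 FPKM in knockout and 15238 to 20816 FPKM in control livers. Ttr (means of 2527 FPKM in knockout and 6049 FPKM in control livers) and Cyp2e1 (1240 and 2944 FPKM) weigh heavily in these sums. The other 4 of the 8 markers were not called. Cyp2e1 is also one of the pericentral markers. Of 12 pericentral markers 7 fell and 2 rose (median -0.78), and of 11 periportal markers 6 fell and 2 rose (median -0.74). The part of these marker changes in the transporter results was not tested, and in whole liver fewer cells of a type and less RNA per cell cannot be told apart.

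Slc22a3, the extraneuronal monoamine transporter OCT3, fell. It measured 0.242, 0.675 and 0.412 FPKM in knockout and 2.53, 1.97 and 1.75 FPKM in control livers. Every knockout library lay below every control library. Slc22a3 had a log2 fold change of -1.47 ± 0.29 (adjusted p = 0.0055), and of -2.07 and -1.10 with pseudocounts of 0.1 and 1. Its mean was 0.443 FPKM in knockout livers, under the filter on low values, and 2.08 FPKM in control livers. The control libraries thus carried Slc22a3 past that filter. Slc22a2, the renal transporter OCT2, a neighbour of Slc22a3 on chromosome 17, was listed at 0 in all knockout libraries and at 0, 0 and 0.198 FPKM in control libraries.

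Slc47a1, the exporter MATE1 that passes organic cations on into bile, also fell. Slc47a1 measured 19.3, 13.9 and 14.6 FPKM in knockout and 53.3, 47.0 and 46.8 FPKM in control livers. The groups were far apart, and knockout 1 was the highest of its group. The group means were 15.9 ± 2.94 FPKM in knockout and 49.0 ± 3.70 FPKM in control livers, with a log2 fold change of -1.60 ± 0.16 (adjusted p = 2.41e-04). Its neighbour on chromosome 11, Slc47a2, was listed at 0 in all 6 libraries.

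Slc22a5, the sodium-dependent carnitine transporter OCTN2, also fell. It measured 3.43, 4.29 and 3.58 FPKM in knockout and 9.75, 11.3 and 8.20 FPKM in control livers, without overlap. The log2 fold change was -1.26 ± 0.19 (adjusted p = 0.00159). The ergothioneine transporter gene Slc22a4, beyond Slc22a21 on chromosome 11, did not pass the filter on low values. Slc22a4 measured 0.193, 0.215 and 0.219 FPKM in knockout and 0.806, 1.25 and 0.186 FPKM in control livers, so that control 3 was as low as the knockouts. Slc22a21, which lies between Slc22a5 and Slc22a4 and whose longest open reading frame is 90.5% identical to that of Slc22a5, was above 0 only in knockout 2, at 0.211 FPKM.

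Slc22a7 showed the largest decrease among the tested members. Slc22a7 encodes OAT2, which takes up organic anions and cyclic GMP into hepatocytes, and measured 1.54, 0.245 and 1.74 FPKM in knockout and 12.4, 15.5 and 8.68 FPKM in control livers. The means were 1.18 ± 0.812 FPKM in knockout and 12.2 ± 3.40 FPKM in control livers, with a log2 fold change of -3.04 ± 0.41 (adjusted p = 9.01e-04). For some members, Slc22a7 among them, the values were whole multiples of a common step once relative depth was removed. Steps down to the lowest value divided by 4 were tried, and none fitted Slc22a15 or Slco3a1. The largest fitting step was used, which gives the fewest fragments. If 1 step is 1 fragment, the fragments behind a value can be counted. Slc22a7 then rested on 7, 1 and 7 fragments in knockout and 54, 65 and 41 in control libraries. Without knockout 2, the library with 1 fragment, its log2 fold change was -2.53 (adjusted p = 5.73e-04).

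**Figure D3:**
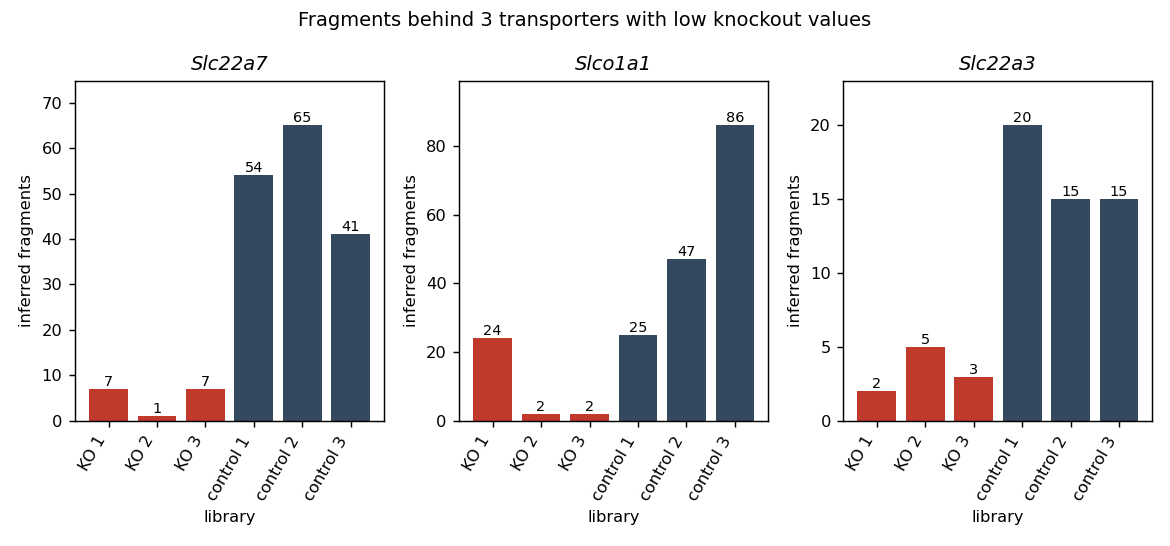
Fragments inferred behind the values of Slc22a7, Slco1a1 and Slc22a3 in each library (KO, knockout). They are whole multiples of the largest step that fitted all 6 libraries, which gives the fewest fragments. Slc22a7 and Slc22a3 have fewer fragments in every knockout library than in any control library, whereas Slco1a1 has 24 in knockout 1 and 25 in control 1.

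A row of organic anion transporter genes on chromosome 19 runs in the order Slc22a19, Slc22a26, Slc22a27, Slc22a28, Slc22a29, Slc22a30, Slc22a8 and Slc22a6. Of its 3 tested genes, 2 fell and 1 did not pass the test, and the differences between their changes were not tested. Slc22a30 fell, at 7.29, 2.96 and 4.25 FPKM in knockout and 19.8, 20.1 and 20.2 FPKM in control livers. The controls lay close together, and knockout 2 was lowest. Slc22a30 thus had a log2 fold change of -2.03 ± 0.27 (adjusted p = 8.09e-04). Slc22a27 fell as well, at 7.13, 5.68 and 5.77 FPKM in knockout and 12.1, 12.8 and 12.2 FPKM in control livers, again without overlap. For Slc22a27 the log2 fold change was -0.95 ± 0.16 (adjusted p = 0.00283). Slc22a26, the most abundant of the row, measured 52.2, 49.3 and 43.4 FPKM in knockout and 48.2, 55.5 and 66.6 FPKM in control livers, and the groups overlapped. Its log2 fold change of -0.22 ± 0.16 did not pass the test (adjusted p = 0.328). Slc22a28 measured 0.220, 0 and 0.249 FPKM in knockout and 0 in all control libraries, and Slc22a29 0.396, 0.221 and 0 FPKM in knockout and 0.413, 0 and 0.572 FPKM in control libraries. Slc22a19 and the renal genes Slc22a8 (OAT3) and Slc22a6 (OAT1) were listed at 0 in all 6 libraries.

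Some genes of this row are near-identical copies, so how the authors' counting divided fragments between them bears on their values. The longest open reading frames of Slc22a30 and Slc22a28 differ at 20 of 1659 aligned bases, and those of Slc22a27 and Slc22a29 at 45 of 1656. The levels of Slc22a30 and Slc22a28, and of Slc22a27 and Slc22a29, are therefore uncertain. Slc22a27 and Slc22a30, which both fell, are themselves 91.8% identical in the reading frame. Whether their falls are separate was not tested. Slc22a26 is at most 76.0% identical to any other member. The 90-base stretches in which the copies differ most come from GENCODE transcripts on GRCm38, and differing bases are in capitals. They span bases 640 to 729 of the reading frame for Slc22a30 and Slc22a28, bases 745 to 834 for Slc22a27 and bases 661 to 750 for Slc22a29.
Slc22a30: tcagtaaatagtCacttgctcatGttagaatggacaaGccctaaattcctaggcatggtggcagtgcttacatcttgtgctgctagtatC
Slc22a28: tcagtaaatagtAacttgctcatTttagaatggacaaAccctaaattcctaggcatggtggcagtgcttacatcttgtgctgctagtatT
Slc22a27: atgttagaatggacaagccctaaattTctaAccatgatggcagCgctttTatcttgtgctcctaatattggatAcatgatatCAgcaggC
Slc22a29: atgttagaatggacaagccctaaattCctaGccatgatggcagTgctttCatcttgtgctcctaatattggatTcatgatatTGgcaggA
The first pair differs at 4 of these 90 bases and the second pair at 8.

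The promoter windows of the 3 expressed genes of the row are shown because 2 of them fell and 1 did not pass the test. They are RefSeq windows on GRCm38.p6 of 300 bases, all on the minus strand and printed in the direction of transcription with the last 50 bases past the start, at chr19:8405056-8405355 for Slc22a30, chr19:7965978-7966277 for Slc22a27 and chr19:7802618-7802917 for Slc22a26. Capitals mark matches, on either strand, to the motifs searched.
Slc22a30: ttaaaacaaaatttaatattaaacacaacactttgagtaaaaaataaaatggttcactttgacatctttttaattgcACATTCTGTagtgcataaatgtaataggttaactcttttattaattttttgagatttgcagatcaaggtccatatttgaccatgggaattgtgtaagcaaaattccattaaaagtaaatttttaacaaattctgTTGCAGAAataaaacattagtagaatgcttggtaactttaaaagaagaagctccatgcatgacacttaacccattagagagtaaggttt
Slc22a27: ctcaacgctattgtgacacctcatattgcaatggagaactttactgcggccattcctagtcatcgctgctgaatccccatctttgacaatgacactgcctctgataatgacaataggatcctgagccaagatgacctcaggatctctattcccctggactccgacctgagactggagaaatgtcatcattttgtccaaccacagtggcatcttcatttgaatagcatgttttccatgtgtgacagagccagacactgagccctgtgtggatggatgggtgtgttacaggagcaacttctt
Slc22a26: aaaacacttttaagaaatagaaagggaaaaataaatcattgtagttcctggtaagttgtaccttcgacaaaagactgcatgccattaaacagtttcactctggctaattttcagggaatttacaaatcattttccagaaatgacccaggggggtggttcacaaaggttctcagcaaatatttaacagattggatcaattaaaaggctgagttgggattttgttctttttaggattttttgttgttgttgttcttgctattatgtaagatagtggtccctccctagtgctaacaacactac
Aligned pairwise, these windows are 57.0% to 62.8% identical. The Slc22a30 window holds 1 match to a C/EBP motif (TTGCNNAA), beginning 39 bases before the start, and 1 to a glucocorticoid element (ACANNNTGT), beginning 173 bases before it. These motifs occur in 10.8% and 6.85% of 32851 mouse promoter windows. The HNF1 core (GTTAAT, 7.10% of windows), the HNF4 core (AAAGTCC, 4.21%) and an NF-kB motif (1.47%) had no match in these 3 windows. In the 13 windows found for 11 of the 15 tested members, the only other matches were 1 to the HNF4 core, 217 bases before the start, and 1 to the glucocorticoid element, 134 bases before it, both in Slc22a3. Windows of Slc22a7, Slc47a1 and Slco3a1 were not analysed here.

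Among the organic anion transporting polypeptides, Slco1a1 was the only member called, and the call depended on most single libraries. Slco1a1 takes up bile salts and conjugated steroids and is known as more abundant in male than in female mouse liver. It measured 2.54, 0.237 and 0.240 FPKM in knockout and 2.77, 5.40 and 8.78 FPKM in control livers. Knockout 1 was close to control 1 and the other knockouts were far lower. The values correspond to 24, 2 and 2 inferred fragments in knockout and 25, 47 and 86 in control libraries. The knockout mean was 1.01 FPKM, and 0.239 without knockout 1, against 5.65 FPKM in control livers. The log2 fold change was -2.25 ± 0.57 (adjusted p = 0.0176), and the call was lost without control 2, control 3, knockout 2 or knockout 3, with log2 fold changes of -2.22, -1.89, -1.91 and -1.91 (adjusted p of 0.0540 to 0.0607). Without knockout 1 the log2 fold change was -2.93 (adjusted p = 0.00329). With all libraries it was -2.95 with a pseudocount of 0.1 and -1.81 with a pseudocount of 1. On chromosome 6 Slco1a1 follows Slco1b2 and Slco1a4, which are not members. The closest members by sequence, Slco1a5 (88.0% identical in the reading frame) and Slco1a6, were listed at 0 in all 6 libraries, as was the thyroxine transporter gene Slco1c1.

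The most abundant polypeptides of the family among the members did not pass the test. Slco2b1, which takes up conjugated steroids, measured 29.3, 35.4 and 35.9 FPKM in knockout and 39.1, 34.1 and 40.2 FPKM in control livers, and the groups overlapped. Its log2 fold change was -0.17 ± 0.14 (adjusted p = 0.413). Slco2a1, the prostaglandin transporter, measured 25.8, 21.4 and 23.5 FPKM in knockout and 35.8, 30.4 and 27.0 FPKM in control livers. The groups did not overlap, but the log2 fold change of -0.39 ± 0.15 was not called (adjusted p = 0.0952). It was called, at -0.50 (adjusted p = 0.0359), when libraries were scaled to equal totals, a change that put the median of all genes at -0.11. Endothelial cells also express Slco2a1. Of 8 general endothelial markers 5 fell and 0 rose, and their summed level was 37.8 to 44.8 FPKM in knockout and 51.9 to 94.6 FPKM in control livers. Of 8 sinusoidal markers 7 fell and 0 rose, at sums of 32.9 to 35.4 FPKM in knockout and 150.4 to 220.2 FPKM in control livers. Of 6 markers of large vessel endothelium 2 rose (Vcam1 and Plvap, by 1.73 and 0.73 log2 units) and 2 fell (Vwf and Efnb2). The sums were 107.1 to 143.1 FPKM in knockout and 51.5 to 77.4 FPKM in control livers. Vcam1 (means of 47.5 FPKM in knockout and 13.7 FPKM in control livers) and Plvap (69.9 and 41.8 FPKM) weigh heavily in these sums. Vwf (0.386 and 1.45 FPKM) and Efnb2 (0.343 and 1.21 FPKM) went the other way. Both had knockout means under the filter on low values and passed it through the control libraries. The part of these 3 marker lists in the level of Slco2a1 was not tested.

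Of the low members of the family, Slco3a1 was tested and not called, and Slco4a1 and Slco4c1 lay under the filter and were not tested. Slco3a1, a widely expressed transporter, measured 3.33, 1.39 and 1.53 FPKM in knockout and 1.21, 1.25 and 1.97 FPKM in control livers, with knockout 1 highest. Its log2 fold change of 0.33 ± 0.33 did not pass the test (adjusted p = 0.491). Slco4a1, a transporter of thyroid hormones, measured 0.276, 0.308 and 0.157 FPKM in knockout livers and was listed at 0 in all controls, which corresponds to 2, 2 and 1 inferred fragments. Slco4a1 was called higher when no filter on low values was used (log2 fold change 0.57, adjusted p = 0.0436). Slco4c1 measured 0.363, 0 and 0.616 FPKM in knockout livers and was also listed at 0 in all controls.

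Other branches of the Slc22 family fell or did not pass the test. Slc22a18, an imprinted gene between Cdkn1c and Phlda2 on chromosome 7, measured 33.7, 32.6 and 31.9 FPKM in knockout and 73.1, 56.7 and 53.8 FPKM in control livers. The knockout libraries were close to each other and all below the controls. The fall of Slc22a18 amounted to a log2 fold change of -0.88 ± 0.15 (adjusted p = 0.00276). Slc22a23, whose substrates are not established, measured 10.6, 8.49 and 10.4 FPKM in knockout and 15.1, 11.8 and 14.3 FPKM in control livers, without overlap. The log2 fold change of -0.46 ± 0.17 missed the threshold (adjusted p = 0.0704), and reached it after rescaling to the same total (-0.58, adjusted p = 0.0388). Slc22a15 measured 1.31, 1.39 and 0.847 FPKM in knockout and 1.04, 0.607 and 0.898 FPKM in control livers (log2 fold change 0.32 ± 0.28, adjusted p = 0.449), with overlap. Slc22a17, described as a cell surface receptor of the iron-binding lipocalin Lcn2, measured 0.190, 0.212 and 0 FPKM in knockout and 0.595, 0.617 and 0 FPKM in control livers, or at most 1 inferred fragment per knockout library and at most 3 per control library. Lcn2 itself was at 3697, 3478 and 5047 FPKM in knockout and 179.5, 201 and 339.8 FPKM in control livers.

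Members known from kidney, brain or testis were listed at or near 0. Without read counts, a listed 0 sets no limit on expression, and it can be a failed estimate, as for albumin (Alb), which was listed at 0 in all controls. Besides those named above, Slc22a12 (the urate transporter URAT1), Slc22a13, Slc22a14, Slc22a16, Slc22a20, Slc22a22, Slco5a1, Slco6b1, Slco6c1 and Slco6d1 were listed at 0 in all libraries, and Slc22a13b-ps was at 0.303 FPKM in control 3 only. Of 7 kidney tubule markers 5 were listed at 0 in all 6 libraries, and their sum was at most 0.119 FPKM in knockout and 0.299 FPKM in control livers. Among the 9 members that fell, knockout 2 had the lowest value for 6, knockout 1 for 2 and knockout 3 for 1.

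Genes that work with these transporters changed in different directions. For this and each later list, the share over all tested genes was 13% lower and 14.1% higher. Efflux pumps and bile salt carriers included 5 that fell and 0 that rose of 14 tested (median log2 fold change -0.53). The bile salt export pump Abcb11 fell to 47.9 ± 15.6 FPKM in knockout livers, against 121 ± 9.67 FPKM in control livers (adjusted p = 0.00247). Abcc6, Abcg2, a pump of urate and many drugs, and the bile salt carrier Slc10a1 had log2 fold changes of -1.04, -0.92 and -0.64 and were also called. Of 9 scaffold and chaperone genes 4 rose and 2 fell (median -0.0011). The transporter chaperones Emb and Bsg, which are known as partners of monocarboxylate transporters, rose by 3.71 and 1.24 log2 units, and the membrane linkers Msn and Ezr by 1.42 and 1.31. Emb measured 9.21 to 11.4 FPKM in knockout and 0 to 0.687 FPKM in control livers. Its control mean was 0.387 FPKM, so the knockout libraries carried it past the filter on low values. Leukocytes also express Emb and Msn. All 8 neutrophil markers rose, at sums of 1695 to 1783 FPKM in knockout and 34.2 to 71.6 FPKM in control livers. All 6 recruited monocyte markers rose as well. Of 8 Kupffer cell and macrophage markers 5 rose, and of 6 T, NK and B cell markers 4 rose, with 0 falls in either list. The part of these 4 marker lists in the rises of Emb and Msn was not tested. Pdzk1, a scaffold of transporters at the membrane, was at 49.3 ± 8.35 FPKM in knockout and 49.1 ± 6.96 FPKM in control livers (adjusted p = 0.997).

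Regulators known to control hepatic transporter genes were called, in either direction, at a share close to that of all tested genes. Of 19 tested 4 rose, 1 fell and 14 did not pass, with a median log2 fold change of -0.10. Among all tested genes 27% were called in either direction, and the median was -0.0007. The forkhead factor Foxa3 rose to 42.7 ± 8.66 FPKM in knockout livers, against 17.7 ± 5.38 FPKM in control livers (adjusted p = 0.00364). Onecut1, the glucocorticoid receptor Nr3c1 and the antioxidant regulator Nfe2l2 had log2 fold changes of 1.13, 0.79 and 0.67. Hnf4a, a regulator of hepatocyte identity, was the 1 that fell, at 153 ± 14.5 FPKM in knockout and 206 ± 15.4 FPKM in control livers (adjusted p = 0.0413). It is also one of the hepatocyte markers above.

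Pathways that share substrates with the members moved in part. Of 9 tested genes of carnitine handling 6 fell and 0 rose (median log2 fold change -0.97). The carnitine synthesis enzyme Bbox1 fell to 24.3 ± 3.99 FPKM in knockout livers, against 73.5 ± 2.59 FPKM in control livers (adjusted p = 2.03e-04). The acyltransferases Crot, Cpt1a and Cpt2 had log2 fold changes of -1.70, -1.10 and -0.97. Of 11 genes of urate handling 4 fell and 1 rose (median -0.34). The 1 that rose was Uox, the urate oxidase, at 1554 ± 215 FPKM in knockout and 631 ± 65.3 FPKM in control livers (adjusted p = 6.84e-04), while the phosphate and urate transporter family genes Slc17a2 and Slc17a3 had log2 fold changes of -1.07 and -0.96. Of 9 genes of thyroid hormone handling 3 fell and 2 rose (median -0.09). Among them were the deiodinase Dio1 at -1.83, the carrier protein Ttr at -1.24 and the amino acid transporter Slc7a8 at 1.51 log2 units.

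Of 11 tested genes of choline, thiamine and creatinine handling 3 rose and 3 fell (median 0.06). The creatine synthesis enzyme Gamt fell to 40.5 ± 6.43 FPKM in knockout livers, against 171 ± 13.5 FPKM in control livers (adjusted p = 4.94e-05), the choline transporter-like gene Slc44a3 had a log2 fold change of -1.15, and the choline kinase Chka and Slc44a2 had log2 fold changes of 1.02 and 0.69. Of 5 monoamine clearance genes 3 fell and 0 rose, among them the oxidase Maob at -1.21 and the histamine methyltransferase Hnmt at -0.82 log2 units. Of 11 prostanoid genes 2 rose and 2 fell (median -0.13). The prostaglandin E synthase Ptges was at 0.926, 1.94 and 1.31 FPKM in knockout livers and listed at 0 in all controls. The knockout libraries thus carried Ptges past the filter on low values. The thromboxane synthase Tbxas1 had a log2 fold change of 1.17. Hpgd, which inactivates prostaglandins after their uptake, had a log2 fold change of -0.73, and the reductase Ptgr2 of -0.58. Of 12 tested female-biased liver genes 9 fell and 1 rose (median -1.89). Of 5 tested male-biased ones 2 fell and 0 rose (median -0.98).

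**Figure D4:**
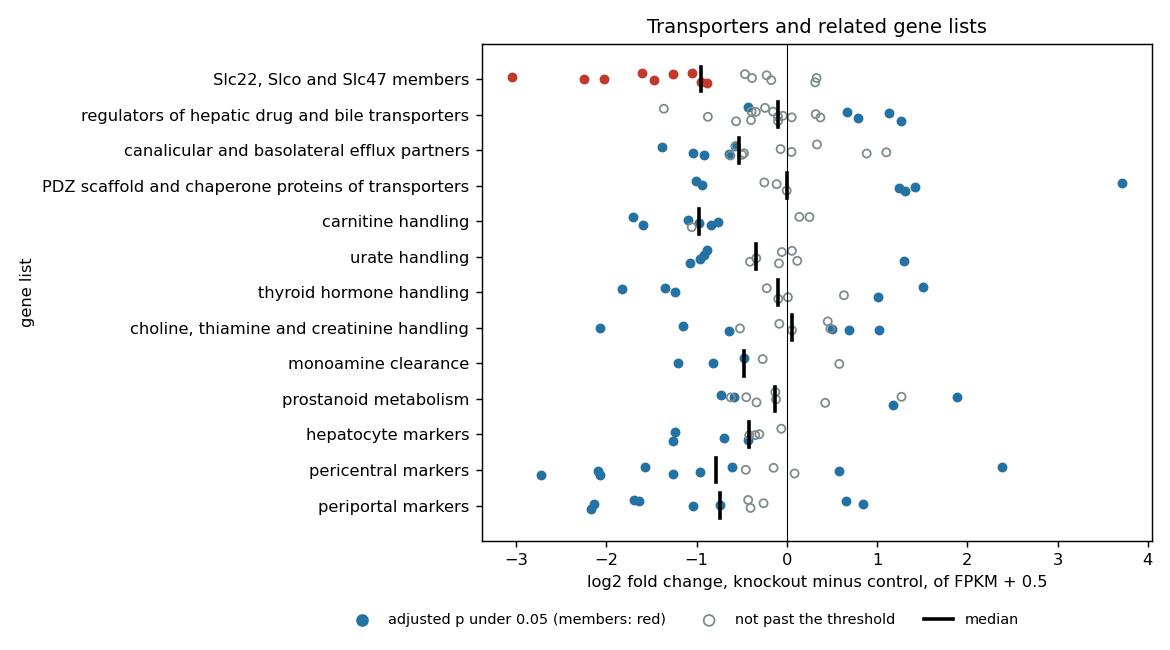
Log2 fold changes of knockout against control for the tested members (top) and for genes of related lists and hepatocyte markers, 1 point per gene, with filled points past the threshold and a bar at each median. The members' median of -0.95 lies near that of carnitine handling (-0.97) and below that of the regulators (-0.10).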

How the data were processed

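The data are 6 whole liver libraries, 3 knockout and 3 control, prepared with a TruSeq kit (Sample Prep v2) and read from both ends on an Illumina HiSeq, per the labels' protocols. The submitters' processing notes name genome build mm9 and Cuffnorm 2.2.1, Cuffdiff 2.2.1, TopHat2 2.1.0 and Trimmomatic 0.33. The gene annotation and the scaling between libraries are not given in the sources used here. FPKM values per gene and library, as the authors deposited them, were not altered. No counts are given, so no counting intervals were computed.

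A linear model (limma 3.58.1, R 4.3.3, with a mean-variance trend, two-sided) was fitted to log2(FPKM + 0.5) of every gene averaging 0.5 FPKM or more. Alb, listed at 0 in all controls, was left out as a failed estimate. The script was tested on simulated data. Members with a group mean of 1 FPKM or more, or with a call, are described singly; from each list, up to 4 called genes of largest change, otherwise the 2 of highest level, could be named. Lcn2, Pdzk1, Map3k7, the Y-linked genes and the low members fall outside that rule. Values of 1 tested member and 2 genes of the lists are not reported here. Members, lists and tests were chosen with earlier results of these data known. Relative depth came from ratios of values under 0.6 FPKM, and values were taken as whole steps within 0.05 of a step. Sequences and gene order are from RefSeq and GENCODE tables of GRCm38, whereas the authors used mm9; all 41 members matched a RefSeq gene. Reading frames were aligned with Biopython 1.88, in place of proteins, which were not used here. Figures were drawn with matplotlib 3.10.9. The alternatives tried were pseudocounts of 0.1 and 1, a filter at 1 FPKM or none, 2 other scalings, 2 other variance models, weighted libraries, a replicate block, and omission of single libraries.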

Additional observations from a re-analysis of the deposited data

How the results depend on the processing

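Of 240 refits of the 15 tested members under 16 alternatives, 234 kept the direction and the side of the threshold, 4 lost a call (Slco1a1 without 1 library) and 2 gained one (Slco2a1 and Slc22a23 after rescaling to the same total). No member changed direction. Members called lower numbered 8 to 9 when a library was left out and 11 after rescaling to the same total. Members called higher numbered 1 with no filter on low values (Slco4a1) and 0 under every other alternative. All genes called lower numbered 943 to 1497 when a library was left out, and the cause was not tested. Of all calls over all genes, 52.1% were rises in the values as deposited, but 39.5% (1356 rises and 2081 falls) after rescaling to the same total. Same-numbered libraries showed no shared deviation from their group means. The correlation of these deviations was -0.0100, -0.00012 and 0.0015 for replicates 1, 2 and 3. No sample correlated best with its own number. With 3 libraries per group, these values cannot show whether same-numbered samples were paired. With the replicate block, 9 members were called lower and 0 higher, and of all genes 1385 were lower and 1575 higher. Depth limits Slc22a7, Slco1a1 and Slc22a3, which rest on 15, 28 and 10 inferred fragments over the knockout libraries and 160, 158 and 50 over the control libraries.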
